A study of Mus musculus with 6 samples.

Results

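The genes described here are the 9 of the vascular endothelial growth factor (VEGF) family that the deposited count table lists under the symbols Vegfa, Vegfb, Vegfc, Pgf, Kdr, Flt1, Flt4, Nrp1 and Nrp2, out of 55487 genes in all. They are 4 ligands, 3 receptor tyrosine kinases and 2 neuropilins, selected by symbol, with no threshold on any value. The choice was made with earlier results of these data known. Bulk RNA was sequenced from cells grown out of mouse embryonic stem cells, 3 libraries labelled Ts1Cje and 3 labelled wild-type. The Ts1Cje mouse, used to model Down syndrome, has an additional copy of distal chromosome 16 and is also known to carry a deletion on chromosome 12. None of the 9 genes lies on chromosome 16, and Pgf lies on chromosome 12 at a distance from that deletion.

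All 6 cultures had been taken from stem cells kept with LIF and serum replacement, and had been differentiated for 4 days. Per the labels, FGF2, BMP-4, activin A and VEGF were added to every culture in that time, so the ligand was present in the medium whatever the cells transcribed. The labels number the samples of each genotype as lots 1 to 3 and give no strain, sex or clone. Whether a lot is its own culture is not said, and the p-values therefore rest on a spread between lots that may be technical. Genotype cannot be told apart from stem cell line.

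VEGF signalling starts when a secreted dimeric ligand bridges receptor tyrosine kinases on the surface of vessel and blood precursors. Kdr encodes VEGFR2, the main signalling receptor, whose expression marks the mesoderm from which yolk sac blood and vessels form. Flt1 encodes VEGFR1, which binds VEGF-A tightly, signals weakly and, partly as a secreted form, acts as a decoy. Flt4 encodes VEGFR3, the receptor of VEGF-C that later serves lymphatic vessels. Neuropilins are co-receptors without kinase activity that also bind class 3 semaphorins.

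The promoters of Flt1, Kdr and Nrp2 are shown because Flt1 was the only member that rose, Kdr showed the widest spread between Ts1Cje libraries, and Nrp2 had the smallest adjusted p of the members that fell. Each window runs from 250 bases before to 50 bases after the RefSeq start (build GRCm38.p6, which is mm10), on the gene's strand, and capitals mark GGAA or its reverse complement TTCC, the core letters bound by ETS factors. The windows are chr5:147725962-147726261 (minus strand) for Flt1, chr5:75978406-75978705 (minus strand) for Kdr and chr1:62703067-62703366 (plus strand) for Nrp2.
Flt1: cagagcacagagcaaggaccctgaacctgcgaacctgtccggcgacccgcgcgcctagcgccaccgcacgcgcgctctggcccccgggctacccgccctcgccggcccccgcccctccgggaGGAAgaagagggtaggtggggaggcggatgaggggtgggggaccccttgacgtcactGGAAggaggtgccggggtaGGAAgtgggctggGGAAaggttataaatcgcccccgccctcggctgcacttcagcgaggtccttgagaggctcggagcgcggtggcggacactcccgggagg
Kdr: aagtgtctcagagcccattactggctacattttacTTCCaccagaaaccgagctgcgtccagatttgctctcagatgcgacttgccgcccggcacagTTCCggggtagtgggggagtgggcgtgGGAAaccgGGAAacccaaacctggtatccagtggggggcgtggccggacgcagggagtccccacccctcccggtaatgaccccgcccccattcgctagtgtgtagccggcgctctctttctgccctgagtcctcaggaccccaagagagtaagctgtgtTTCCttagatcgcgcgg
Nrp2: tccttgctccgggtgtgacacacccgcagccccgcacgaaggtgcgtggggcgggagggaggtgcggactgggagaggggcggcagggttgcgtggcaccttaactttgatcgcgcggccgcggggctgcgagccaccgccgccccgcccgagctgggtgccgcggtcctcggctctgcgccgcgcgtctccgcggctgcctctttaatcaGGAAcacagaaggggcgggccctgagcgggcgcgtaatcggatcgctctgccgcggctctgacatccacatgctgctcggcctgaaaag

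The Flt1 window held 4 matches to GGAA on either strand, the Kdr window 5 and the Nrp2 window 1. Of 32851 promoter windows of the same length, 96.0% held at least 1 match, with a mean of 3.52 per window. None of the 3 windows held ACGTG, the core letters of the hypoxia response element (19.6% of all windows, either strand), or AGATAA (11.2%) or TGATAA (9.05%), forms of the GATA motif. All 3 windows were rich in G and C, at 70.7%, 60.7% and 70.7% of bases for Flt1, Kdr and Nrp2. These matches describe letters, and no binding was measured.

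Libraries held 16577065 to 19010856 counts. All 9 genes passed the filter on low counts, and their counts ran from 10 (Vegfc and Pgf in Ts1Cje replicate 1) to 8604 (Kdr in wild-type replicate 3). On the first principal component, which held 79.1% of the variance, the genotypes separated, and of the wild-type libraries replicate 1 had the smallest distance to the Ts1Cje side. The label names primitive macrophage progenitors, and of the listed macrophage and myeloid markers Ptprc, Cx3cr1 and Trem2 had 0 counts in all 6 libraries. Of 14 macrophage genes 4 were tested and 1 rose, Cd68, with overlapping groups (adjusted p = 0.0426, edgeR). Over all tested genes 23.3% rose, so this is no result about macrophage genes. The macrophage count was 0 without Ts1Cje replicate 1 or 2 or wild-type replicate 2 or 3, and 2 without wild-type replicate 1. The list, most of it Csf1r, which did not pass, had a summed level of 28.7 to 31.5 CPM (counts scaled to library size) in Ts1Cje and 18.8 to 25.1 CPM in wild-type. Counts are per gene: Vegfa has 13 annotated transcripts and Flt1 has 6 (GENCODE M21), so membrane-bound and secreted Flt1 forms are summed. Nrp2 shares 2556 bases with Gm37121 on its own strand, which had 14 counts over Ts1Cje and 58 over wild-type, against 1156 and 6282 for Nrp2. It also shares 3351 bases with an antisense gene without counts, and no other member overlapped an annotated gene with counts.

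In Ts1Cje cells 1 of the 9 VEGF genes rose, 7 fell and 1 did not pass (edgeR's quasi-likelihood test, Benjamini-Hochberg adjusted p below 0.05 over all 17315 genes tested). Flt1, the decoy receptor gene, rose 2.85-fold. Kdr, the main receptor gene, was 6.28-fold lower, and Pgf and Vegfc, ligand genes, were 6.93-fold and 6.37-fold lower. Vegfa, the chief ligand, did not pass. Calls were common in these libraries: 43.8% of all tested genes passed in either direction, 23.3% higher and 20.5% lower in Ts1Cje. At a change of at least 2-fold, 6 members fell and 1 rose, where 6.41% of all tested genes fell and 11.7% rose by that much. The members' median log2 fold change was −1.42, and that of all tested genes −0.006. As the members were chosen with earlier results of these data known, these contrasts are descriptive only. In 8 of 9 members the libraries of the 2 genotypes did not overlap, as in 55.2% of all tested genes.

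**Figure D1:**
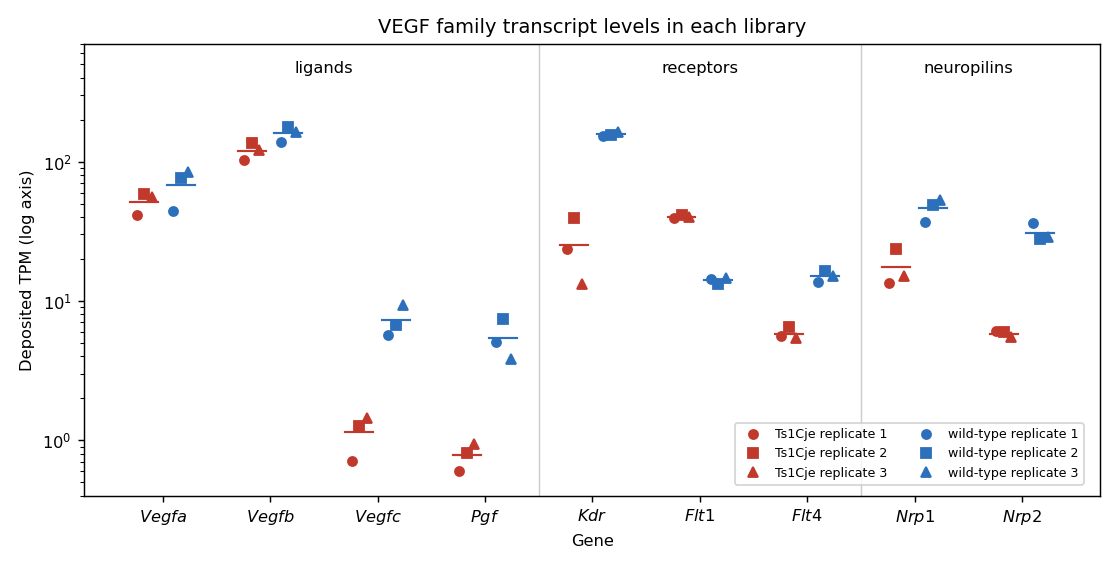
Deposited TPM of the 9 genes in each library on a log axis, with Ts1Cje (red) left of wild-type (blue), a symbol per replicate and a line at the mean of 3 libraries. Flt1 lies higher in Ts1Cje (39.2 to 41.7 TPM) than in wild-type (13.2 to 14.6 TPM), while Kdr, Flt4, Nrp1, Nrp2, Vegfc and Pgf lie lower and Vegfa overlaps.

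Among the receptors, Kdr (ENSMUSG00000062960, chromosome 5, 75932827 to 75978458, minus strand, mm10) stood at 23.4, 39.2 and 13.2 TPM in Ts1Cje replicates 1 to 3, against 153, 155 and 164 TPM in the wild-type replicates. The groups did not overlap, and the Ts1Cje libraries were spread widely, with replicate 3 lowest, while the wild-type libraries lay close together. The coefficient of variation of Kdr was 51.8% in Ts1Cje and 3.72% in wild-type. Its log2 fold change was −2.65 ± 0.41 SE (adjusted p = 0.00478, edgeR, n = 3 per group).

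Flt1 (ENSMUSG00000029648, chromosome 5, 147561604 to 147726011, minus strand) stood at 39.2, 41.7 and 39.7 TPM in Ts1Cje, against 14.3, 13.2 and 14.6 TPM in wild-type. All Ts1Cje libraries were above all wild-type libraries, with a coefficient of variation of 3.21% in Ts1Cje and 5.30% in wild-type. Its log2 fold change was 1.51 ± 0.07 SE (adjusted p = 8.49e-07, edgeR), which placed it at rank 22 of the 17315 tested genes.

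Flt4 (ENSMUSG00000020357, chromosome 11, 49609263 to 49652739, plus strand) stood at 5.61, 6.44 and 5.44 TPM in Ts1Cje, against 13.7, 16.4 and 15.04 TPM in wild-type. The groups did not overlap, and the log2 fold change was −1.38 ± 0.12 SE (adjusted p = 1.41e-05, edgeR). Wild-type libraries thus held 2.60-fold more Flt4.

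The makeup of the receptor transcripts, compared here per length, differed between the genotypes. The ratio of Flt1 to Kdr TPM was 1.67, 1.06 and 3.01 in Ts1Cje, against 0.0935, 0.0852 and 0.0890 in wild-type. Flt1 exceeded Kdr in every Ts1Cje library and Kdr exceeded Flt1 in every wild-type library. Over 3 libraries each, the ratio averaged 1.91 ± 0.994 (SD) in Ts1Cje cells and 0.0892 ± 0.00412 in wild-type cells, a 21.4-fold difference. Kdr made up 34.0% ± 11.1 of the summed TPM of the 3 receptors in Ts1Cje and 84.4% ± 0.402 in wild-type, and Flt1 57.7% ± 10.2 and 7.53% ± 0.373. The share of Flt4 was 8.31% ± 0.974 in Ts1Cje and 8.09% ± 0.727 in wild-type, less than 1 SD apart. The sum itself was 71.3 ± 14.7 TPM in Ts1Cje and 186 ± 6.46 TPM in wild-type.

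**Figure D2:**
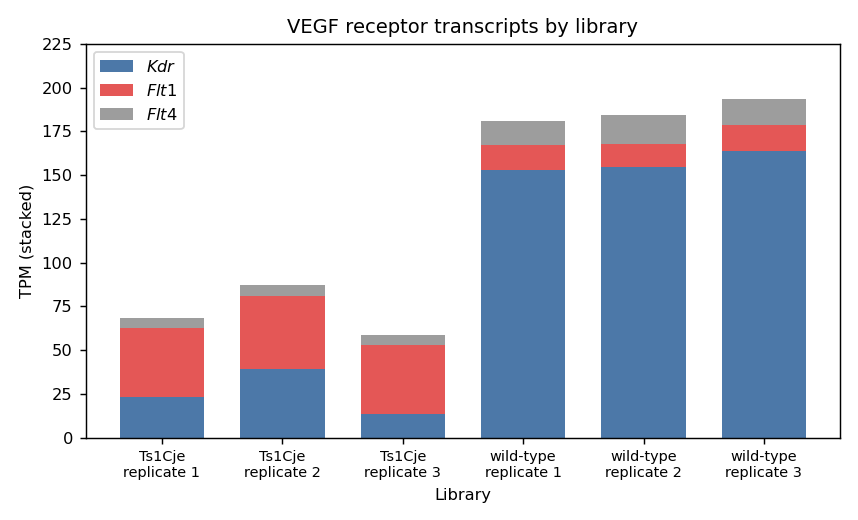
Stacked TPM of Kdr (blue), Flt1 (red) and Flt4 (grey) in each library, Ts1Cje left and wild-type right. The stacks reach 58.4 to 87.3 TPM in Ts1Cje and 181 to 193 TPM in wild-type, and Flt1 is the largest part in every Ts1Cje library where Kdr is the largest in every wild-type library.

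Both neuropilin genes fell. Nrp2 (ENSMUSG00000025969, chromosome 1, 62703285 to 62818695, plus strand), the co-receptor paired with VEGFR3 and VEGF-C in later development, stood at 6.06, 5.95 and 5.50 TPM in Ts1Cje, against 36.4, 27.7 and 28.7 TPM in wild-type. The Ts1Cje libraries lay within a narrow range far under the wild-type ones. Its log2 fold change was −2.41 ± 0.11 SE (adjusted p = 7.89e-07, edgeR), rank 20 of all tested genes.

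Nrp1 (ENSMUSG00000025810, chromosome 8, 128358604 to 128503363, plus strand), the co-receptor of VEGFR2 for VEGF-A, stood at 13.5, 23.7 and 15.2 TPM in Ts1Cje, against 36.8, 48.7 and 53.5 TPM in wild-type. The groups did not overlap, and Ts1Cje replicate 2 was highest of its group, as it was for Kdr. The log2 fold change was −1.42 ± 0.26 SE (adjusted p = 0.00601, edgeR). The ratio of Nrp1 to Nrp2 TPM averaged 2.99 ± 0.902 (SD) in Ts1Cje cells and 1.54 ± 0.465 in wild-type cells, and its lowest Ts1Cje value, 2.23, lay above its highest wild-type value, 1.86.

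Among the ligands, Vegfc (ENSMUSG00000031520, chromosome 8, 54077606 to 54187096, plus strand), the VEGFR3 ligand, had 10, 16 and 21 counts in Ts1Cje, against 79, 94 and 134 in wild-type. That is 0.714, 1.27 and 1.45 TPM in Ts1Cje, against 5.73, 6.69 and 9.41 TPM in wild-type. The groups did not overlap, and the log2 fold change was −2.67 ± 0.33 SE (adjusted p = 0.000163, edgeR).

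Pgf (ENSMUSG00000004791, chromosome 12, 85166635 to 85177790, minus strand), placental growth factor, which binds VEGFR1 and not VEGFR2, had 10, 12 and 16 counts in Ts1Cje, against 83, 123 and 65 in wild-type. Its TPM was 0.603, 0.806 and 0.932 in Ts1Cje, against 5.08, 7.38 and 3.85 in wild-type. The groups did not overlap, and the log2 fold change was −2.79 ± 0.34 SE (adjusted p = 0.000131, edgeR). This ligand gene was lower in the cultures where Flt1, its receptor gene, was higher.

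Vegfb (ENSMUSG00000024962, chromosome 19, 6982473 to 6987651, minus strand), another VEGFR1 ligand and the member with the highest mean TPM in both genotypes, stood at 103, 135 and 122 TPM in Ts1Cje, against 138, 176 and 164 TPM in wild-type. The groups nearly touched, and the log2 fold change was −0.42 ± 0.12 SE (adjusted p = 0.0188, edgeR). This call was lost without Ts1Cje replicate 1 (adjusted p = 0.0598) or 3 (0.0521) and without wild-type replicate 2 (0.0780) or 3 (0.0606).

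Vegfa (ENSMUSG00000023951, chromosome 17, 46016993 to 46032369, minus strand), the ligand of VEGFR1 and VEGFR2, stood at 41.1, 58.3 and 55.3 TPM in Ts1Cje, against 44.3, 75.8 and 84.3 TPM in wild-type. The groups overlapped, and wild-type replicate 1 lay among the Ts1Cje libraries. The log2 fold change was −0.42 ± 0.28 SE (adjusted p = 0.282, edgeR). Without wild-type replicate 1 the gene passed, at −0.66 and an adjusted p of 0.00380 (8 members then fell), and it also passed with the lot number as a block (−0.38, adjusted p = 0.0232).

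**Figure D3:**
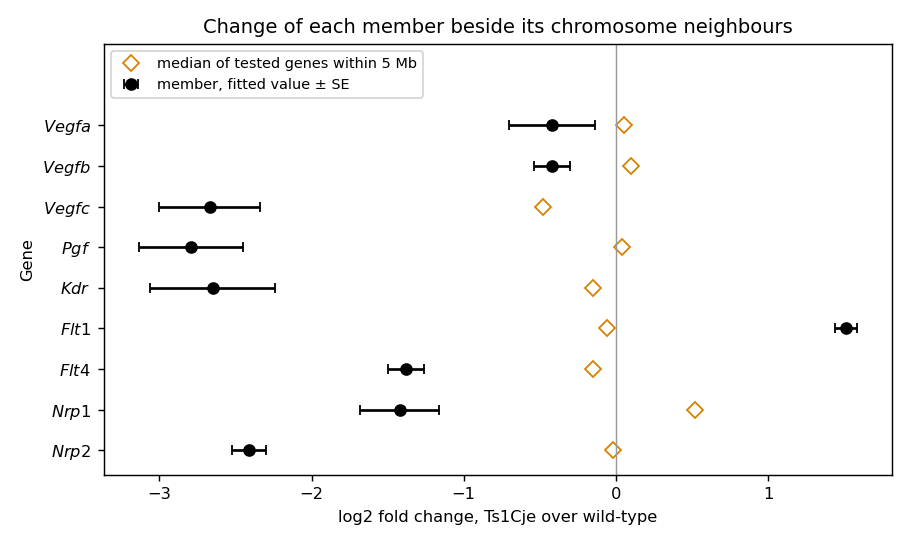
Log2 fold change of each member, Ts1Cje over wild-type, with its SE (black), and the median of the tested genes that start within 5 Mb of it on the same chromosome (orange diamonds). Nrp1 at −1.42 lies on the other side of 0 from its neighbours' median of 0.52.

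The order of levels within a genotype was set by TPM. In Ts1Cje the order was Vegfb (120.2 TPM), Vegfa (51.6), Flt1 (40.2), Kdr (25.3), Nrp1 (17.5), Nrp2 (5.83), Flt4 (5.83), Vegfc (1.15) and Pgf (0.780). The ranges of Vegfa and Flt1, Flt1 and Kdr, Kdr and Nrp1, Nrp2 and Flt4, and Vegfc and Pgf overlapped between libraries. In wild-type it was Vegfb (159), Kdr (157), Vegfa (68.1), Nrp1 (46.3), Nrp2 (30.9), Flt4 (15.1), Flt1 (14.02), Vegfc (7.28) and Pgf (5.44), and the ranges of Vegfb and Kdr, Vegfa and Nrp1, Flt4 and Flt1, and Vegfc and Pgf overlapped. Flt1 thus ranked 3 of 9 in Ts1Cje and 7 of 9 in wild-type.

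To see whether its surroundings changed too, each member was set beside the tested genes that start within 5 Mb of it. Nrp1 lies in distal chromosome 8, where 37 of 54 neighbours rose and 0 fell (edgeR adjusted p; median log2 fold change 0.52), and every neighbour had a higher fold change than Nrp1. Around Vegfc, 1 of 18 neighbours rose and 10 fell, with a median of −0.48, and 22.2% of them lay below Vegfc; within 2 Mb the median was −0.20 over 7 neighbours. Medians around the other 7 members ran from −0.15 (Kdr and Flt4) to 0.10 (Vegfb). Other windows moved the medians of Kdr, at 0.01 within 10 Mb, and of Flt4, at −0.29 within 2 Mb, where 18 of 42 neighbours fell. Of the 99 neighbours of Flt1, 98.0% had a lower fold change than Flt1, and none of the 52 neighbours of Kdr, 75 of Nrp2 or 107 of Pgf fell below the member.

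For Kdr and Flt1, the 5 genes with the most similar profile over the 6 libraries were found among 10344 tested genes with a mean of at least 10 CPM, by the root mean square difference of log2 CPM after centring each gene. Nearest to Kdr were Lmo2, a partner of TAL1 in blood and vessel precursors (0.158), Inka1 (0.159), Siah2, a ubiquitin ligase of the hypoxia pathway (0.188), Wnt5a, a secreted WNT ligand of mesoderm (0.197), and Col13a1, a transmembrane collagen (0.209). Lmo2 stood at 5.10, 8.76 and 3.46 CPM in Ts1Cje, against 46.0, 40.3 and 42.2 CPM in wild-type. All 5 had their highest Ts1Cje value in replicate 2 and their lowest in replicate 3, as Kdr did (66.3, 108 and 37.0 CPM in Ts1Cje). Nearest to Flt1 were Lrba, a vesicle trafficking gene (0.0704), Ston2, an endocytosis adaptor (0.0739), and Abhd5, a cofactor of fat breakdown (0.0833). Next came the antisense transcript Gm49227 (0.0880, on chromosome 16, uncertain because the counting strand is not known) and the lysosomal sialidase gene Neu1 (0.0975). These genes were chosen for their likeness over the same 6 libraries, so their shared order among libraries and between genotypes follows from the choice.

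**Figure D4:**
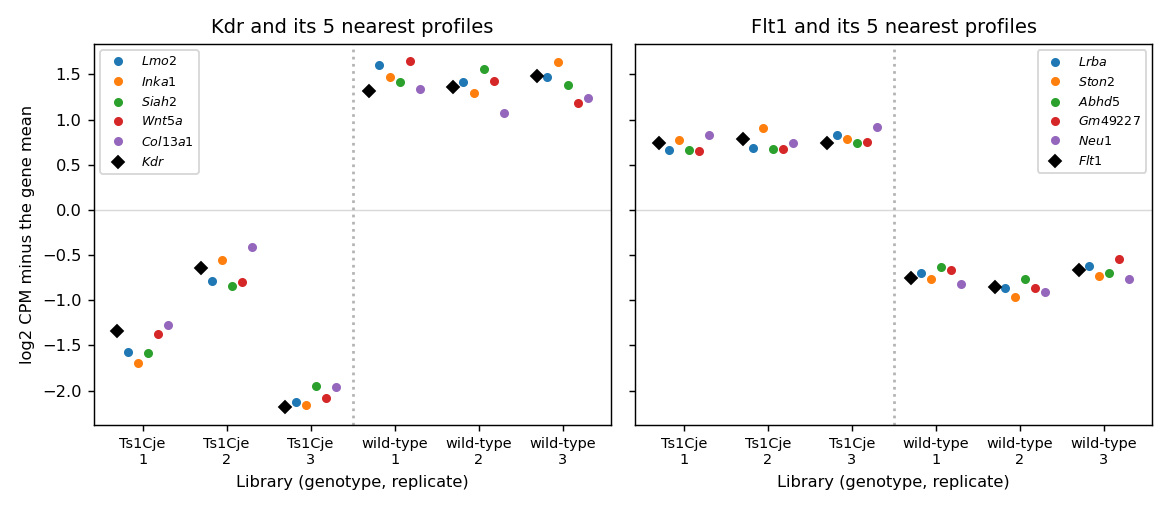
Log2 CPM minus the gene's mean in each library for Kdr (left) and Flt1 (right) as black diamonds, with the 5 nearest genes as coloured points, and with Ts1Cje left of wild-type in each panel. The Kdr group is spread between Ts1Cje libraries, with replicate 3 lowest, whereas the Flt1 group lies at nearly 1 level within each genotype.

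Of 86 tested genes in 6 lists of other VEGF pathway genes, 20 rose and 24 fell, with a median log2 fold change of −0.09. In 49 of them the groups did not overlap. Over all tested genes 23.3% rose, 20.5% fell and 55.2% had groups that did not overlap, so these counts lie close to the background and are no result about the pathway. The same shares stand behind the count of each list. Among semaphorins, plexins and VEGF-D, 3 of 14 tested genes rose and 4 fell (median 0.02). Plxnd1, the plexin of endothelial cells, fell to 12.4, 22.1 and 13.3 CPM in Ts1Cje, against 67.4, 97.2 and 108 CPM in wild-type (log2 fold change −2.51 ± 0.28 SE, edgeR adjusted p = 0.000719). The neuropilin partner Plxna4 (−1.72 ± 0.33), the neuropilin ligand Sema3a (−1.23 ± 0.32) and Plxna2 (−1.34 ± 0.29, edgeR adjusted p = 0.0132) fell. Sema3c, a ligand that binds both neuropilins, rose (1.87 ± 0.45). Its levels were low, at 1.21 ± 0.410 CPM in Ts1Cje and 0.326 ± 0.0928 CPM in wild-type, and its change was 0.42 in limma-trend on log2(TPM + 1). Plxna2 lost its call without Ts1Cje replicate 1 (0.0663) and with the lot block (0.0562). Plxna1, named after its values were seen, rose to 382 ± 20.8 CPM in Ts1Cje, against 212 ± 9.04 in wild-type. Vegfd, the remaining ligand and likewise named afterwards, stood at 2.36, 2.86 and 1.52 CPM in Ts1Cje and 1.19, 1.24 and 1.81 CPM in wild-type (0.66 ± 0.34, adjusted p = 0.142).

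Of 28 tested signal transducers of VEGF receptors, 8 rose and 9 fell, beside 23.3% and 20.5% of all tested genes (median −0.06; 5 fell without wild-type replicate 3). Shb, an adaptor bound to active VEGFR2, rose to 49.8, 65.5 and 60.5 CPM in Ts1Cje, against 18.0, 12.99 and 13.8 CPM in wild-type (1.97 ± 0.15, adjusted p = 9.01e-06). Nos3, the nitric oxide synthase of endothelium, fell to 1.12 ± 0.46 CPM in Ts1Cje, against 7.10 ± 3.20 CPM in wild-type (−2.66 ± 0.44, adjusted p = 0.00115). The next 3 genes were named after their values were seen. Plcg1, the phospholipase that VEGFR2 activates, fell (−0.79 ± 0.09), Src rose (0.71 ± 0.08) and Mapk3 fell (−0.44 ± 0.07).

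Of 14 tested phosphatase and trafficking genes, 6 rose and 3 fell (median 0.11). The endocytic genes Dab2, a clathrin adaptor (2.48 ± 0.22), and Myo6, a motor of endocytic vesicles (2.33 ± 0.14), rose, as did Rab4a, a GTPase of rapid recycling (2.03 ± 0.12, adjusted p = 2.32e-06). Dab2 stood at 550, 351 and 527 CPM in Ts1Cje, against 100.3, 86.1 and 69.5 CPM in wild-type. Cdh5, the endothelial cadherin that associates with VEGFR2 (−3.06 ± 0.43), and Ptprb, the phosphatase that acts on VEGFR2 and TIE2 (−1.19 ± 0.31, edgeR adjusted p = 0.0104), fell. Ptprb levels were low, at 1.71 ± 0.594 CPM in Ts1Cje and 3.91 ± 0.811 CPM in wild-type. Its change was −0.46 in limma-trend on log2(TPM + 1).

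Of 8 genes that sense oxygen upstream of Vegfa, 1 rose and 1 fell (median 0.02; 2 fell without wild-type replicate 1). Epas1, which encodes HIF2A, a factor able to activate Vegfa and Flt1, rose to 519, 512 and 678 CPM in Ts1Cje, against 60.3, 48.8 and 49.4 CPM in wild-type (3.43 ± 0.14, adjusted p = 1.74e-06). Hif1a, named after its values were seen, stood at 211 ± 10.1 CPM in Ts1Cje and 198 ± 17.8 CPM in wild-type (0.09 ± 0.08, adjusted p = 0.359). Egln3, a prolyl hydroxylase that marks HIF for decay and is itself induced by hypoxia, fell (−0.98 ± 0.13, named afterwards).

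Of 9 tested genes known to be induced by VEGF in endothelium, 1 rose and 2 fell (median −0.37). Dll4, a NOTCH ligand of sprouting vessels, fell to 0.485 ± 0.0968 CPM in Ts1Cje, against 2.19 ± 0.697 CPM in wild-type (−2.17 ± 0.39, edgeR adjusted p = 0.00146). At these low levels its change was −0.99 in limma-trend on log2(TPM + 1). Rcan1, the calcineurin inhibitor, rose (1.74 ± 0.08, edgeR adjusted p = 9.36e-07), and it lies in the chromosome 16 segment that Ts1Cje carries in an extra copy. Erg, a vessel marker in the same segment, fell (−3.73 ± 0.39). A part of the extra copy in these changes was not tested. Without Ts1Cje replicate 2 this list had 4 genes lower, and 1 without Ts1Cje replicate 1 or 3 or wild-type replicate 1 or 2. Without wild-type replicate 1 it had 2 higher.

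Related receptor kinases and their ligands gave 1 of 13 tested genes higher and 5 lower (median −0.54; 3 rose without wild-type replicate 1). Kit, the stem cell factor receptor, rose to 147, 165 and 186 CPM in Ts1Cje, against 35.4, 68.5 and 75.3 CPM in wild-type (1.47 ± 0.30, adjusted p = 0.0106). Tie1, an endothelial receptor, fell to 0.1096, 0.417 and 0.262 CPM in Ts1Cje, against 3.46, 10.4 and 12.99 CPM in wild-type (−5.07 ± 0.65). These Ts1Cje levels are near the floor, and the change of Tie1 was −2.41 in limma-trend on log2(TPM + 1). Pdgfrb, a receptor of mural and mesodermal cells (−4.82 ± 0.54), its ligand gene Pdgfb (−2.61 ± 0.25), Csf1, the ligand of the macrophage receptor CSF1R (−2.05 ± 0.17), and Flt3l (−1.22 ± 0.34, adjusted p = 0.0159) fell. Flt3l lost its call without wild-type replicate 3 (0.0744). Pdgfra, named after its values were seen, stood at 241 ± 15.9 CPM in Ts1Cje and 222 ± 57.2 CPM in wild-type (0.12 ± 0.18, adjusted p = 0.632).

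**Figure D5:**
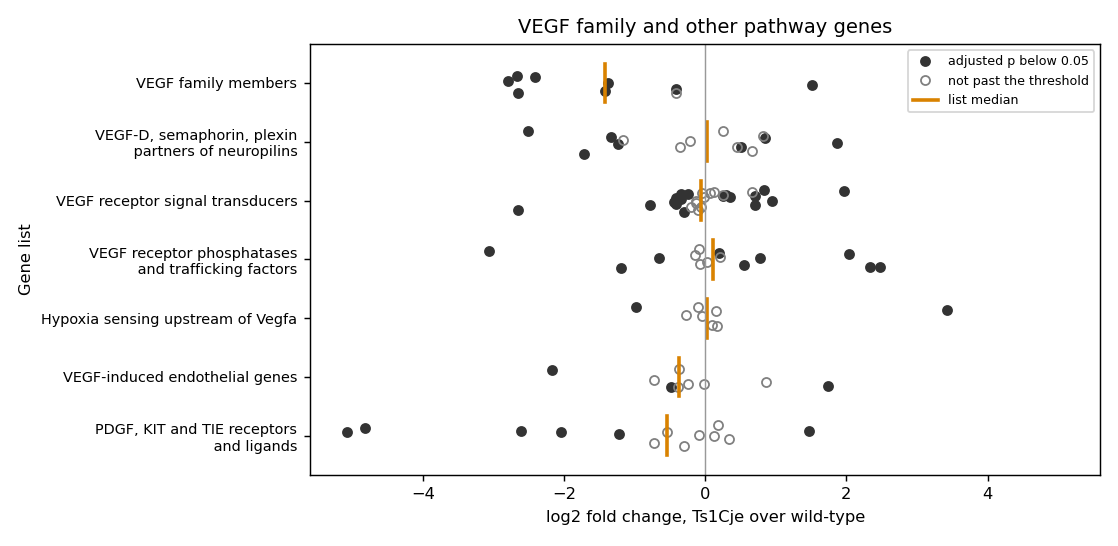
Log2 fold change, Ts1Cje over wild-type, of each tested gene in the VEGF family and in 6 lists of other pathway genes; filled points passed an adjusted p of 0.05 in edgeR, open points did not, and orange bars are list medians. The family's median of −1.42 lies below the medians of the 6 other lists shown, which run from −0.54 to 0.11. Of the marker lists, not shown, vessel precursors and endothelium (−3.06) and lateral and extraembryonic mesoderm (−3.57) had lower medians than the family. All other marker lists had higher medians.

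Markers of some of the cell types that a day 4 culture can hold moved in the same direction as these genes. Over all tested genes 23.3% rose and 20.5% fell, and these shares stand behind each marker count here and in the paragraphs that follow. Of 13 tested markers of vessel and blood precursors, 12 fell and 0 rose, with a median log2 fold change of −3.06. None of these markers is a member, but 3 are shared with the lists above. Their summed level was 45.8 to 65.3 CPM in Ts1Cje and 268 to 370 CPM in wild-type, and Emcn was at 0 in every library. Of 10 tested markers of lateral and extraembryonic mesoderm, 8 fell and 0 rose (512 to 557 CPM summed in Ts1Cje, 1475 to 2166 in wild-type; 1 rose without wild-type replicate 1). Most of the Ts1Cje mesoderm sum was Pdgfra (241 ± 15.9 CPM in Ts1Cje, 222 ± 57.2 CPM in wild-type) and Ahnak (207 ± 28.5 and 192 ± 70.0 CPM), which did not pass. The markers that fell in both lists moved the same way as Kdr, Flt4, Nrp1, Nrp2, Vegfc and Pgf. In bulk samples fewer cells of a type and less RNA per cell cannot be told apart.

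Markers of parietal endoderm, the yolk sac layer that lays down basement membrane, moved the same way as Flt1: 10 of 11 rose, with a summed level of 14239 to 18711 CPM in Ts1Cje and 2638 to 3047 CPM in wild-type. All 14 markers of definitive and visceral endoderm rose (1329 to 1825 CPM summed in Ts1Cje, 399.8 to 489.7 CPM in wild-type), and 9 of 11 pluripotency and epiblast markers rose (1607 to 2218 CPM summed in Ts1Cje, 292 to 505 CPM in wild-type). Of 12 trophoblast markers, a tissue known for Flt1 and Pgf, 6 were tested, 2 rose and 2 fell, and the giant cell genes Prl3d1 and Prl2c2 were at 0 in every library. Their summed level was 20.8 to 35.0 CPM in Ts1Cje and 183 to 273 CPM in wild-type, and most of the wild-type sum was Cdx2, a gene also expressed in mesoderm (5.21 ± 2.91 CPM in Ts1Cje, 208 ± 44.5 CPM in wild-type). Cdx2 and Plac1 fell, Krt7 and Ascl2 rose, and Tfap2c and Gata3 did not pass.

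Among the other marker lists, the primitive streak markers that passed all fell, and neuroectoderm and fibroblast markers moved both ways. Beside 23.3% higher and 20.5% lower over all tested genes, counts in lists of 4 or 5 tested genes are no result about those cell types. Of 8 primitive streak markers 4 fell and 4 did not pass, and their summed levels overlapped (435 to 641 CPM in Ts1Cje, 528 to 1004 CPM in wild-type; 2 fell without Ts1Cje replicate 1 and 1 rose without wild-type replicate 1). Of 5 tested neuroectoderm markers 2 rose and 2 fell (92.0 to 117 CPM summed in Ts1Cje, 58.6 to 109 CPM in wild-type). These counts changed with 1 library: 4 rose without wild-type replicate 1, and 1 fell without any 1 of the other libraries. Of 4 tested fibroblast markers 1 rose and 2 fell (139 to 196 CPM summed in Ts1Cje, 45.1 to 73.1 CPM in wild-type; 1 fell without Ts1Cje replicate 1 or 3). Most of the Ts1Cje fibroblast sum was Pdpn, the marker that rose (150 ± 31.1 CPM in Ts1Cje, 19.3 ± 4.10 CPM in wild-type). The collagen genes Col1a1 (0.258 ± 0.0182 CPM in Ts1Cje, 24.9 ± 19.1 CPM in wild-type) and Col1a2 fell. The part of any of these cell types in the VEGF gene results was not tested.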

How the data were processed

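Poly(A) RNA was sequenced with a directional kit, per the labels' protocols. One table deposited by the authors holds raw counts by Ensembl ID, and another holds TPM, a level per transcript length, for the same 6 libraries. Per the submitters' processing notes, featureCounts 1.6.3, HISAT2 2.1.0, Trimmomatic 0.38 and FastQC 0.11.7 were used, with mm10. The sources used here do not give settings, counting strand or the lengths behind the TPM.

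Counts were analysed in R 4.3.3. Genes were kept by filterByExpr (minimum count 10, total 15), scaled by TMM and tested with edgeR 4.0.16 (robust quasi-likelihood fit, no covariate), with Benjamini-Hochberg adjustment over the 17315 genes kept and a threshold of 0.05. The approximate SE divides a log2 fold change's size by the root of its F statistic. Fold changes are Ts1Cje over wild-type, and CPM are TMM-scaled. Likeness used log2 CPM with a prior count of 2. On simulated counts the edgeR fit recovered 56% of 100 genes with a log2 change of 1 in size, and 90% of 100 with 2. A gene that did not pass may therefore still differ. Alternatives used DESeq2 1.42.0, limma 3.58.1, other scalings and filters, and each library left out.

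The members and lists were chosen with earlier results of these data known. In each of the 6 pathway lists the text names genes past the threshold with a log2 change of at least 1, up to 6 by adjusted p, and any triplicated gene, and says where a gene was added afterwards. Groups came from the labels, and each value column matched 1 sample. Promoters are from RefSeq and matched all 9 members; Vegfa and Pgf have more than 1 window. Protein sequences were not used here.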

Additional observations from a re-analysis of the deposited data

How the results depend on the processing

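Under 15 alternatives (edgeR with upper-quartile or with DESeq2 size factors, DESeq2, limma-voom, limma-trend on TPM with a pseudocount of 1 or 0.1, no filter, a minimum mean log2 CPM of 1, each of 6 libraries left out, and the replicate block), 1 member rose in every fit and 6 to 8 fell. All members kept their direction. Kdr, Flt1, Flt4, Nrp1, Nrp2 and Vegfc kept their calls in all 15, and Pgf in those that tested it. Kdr ranged from −3.10 to −2.34 and reached an adjusted p of 0.0382 with the block. The calls of Vegfb and Vegfa changed as given above. Among other pathway genes 18 to 23 rose and 19 to 27 fell. Pdgfra, not called, turned to −0.05 without wild-type replicate 3 (adjusted p = 0.792) and passed at 0.33 without wild-type replicate 1 (0.0205). The Flt1 to Kdr ratio in wild-type was 0.133 on CPM, which is not per length, against 0.0892 on TPM. Leaving out a library moved it between 0.0871 and 0.0912 in wild-type. In Ts1Cje it was 1.91, with 1.37 as the lowest value (without replicate 3) and 2.34 as the highest (without replicate 2), and 2.86 on CPM. Same-numbered lots correlated by 0.219, 0.0589 and 0.202 in their deviations from the group means, and every library correlated best with its own number. For wild-type lot 2 the next value was close, 0.0387 with Ts1Cje lot 3. Deviations within a group cancel, so these correlations depend on each other and cannot decide whether lots are paired. The labels do not say whether the numbers pair lots across genotypes, and the main fit did not take them as pairs. The replicate block gave 8326 calls over all genes, against 7579 without it, and 8 members lower, against 7. With it Plxna2 lost its call (0.0562), as it did with no filter (0.0559). Low counts limit Vegfc and Pgf in Ts1Cje, at 10 to 21 per library. Low levels also limit the sizes given for Tie1, Dll4, Ptprb and Nos3 (−1.73 for Nos3 in limma-trend on log2(TPM + 1)). The causes of these changes were not tested.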
